A study of Homo sapiens with 9 samples.

Results

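TRIB1, TRIB2 and TRIB3, the human genes of the Tribbles pseudokinases, were described in 4 lists of FAIRE-seq peaks from Jurkat cells. FAIRE-seq sequences the DNA that stays in the aqueous phase when formaldehyde-fixed chromatin is extracted with phenol and chloroform, which is enriched for DNA with few nucleosomes. Jurkat is a human T cell leukaemia line, here clone E6-1. Peaks of the 4 lists that overlapped or touched were joined, and a merged region was assigned to a gene when it lay within 50 kb of the annotated gene start (the 5′-most start in GENCODE release 44 placed on GRCh37, the build called hg19) or in the gene body. This gave 18 of 40703 merged regions: 4 at TRIB1, 4 at TRIB2 and 10 at TRIB3. These are 3 of the 20163 protein-coding genes to which the same rule was applied. Regions were numbered along each gene in the direction of transcription, and all 3 genes lie on the plus strand.

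The study followed Jurkat cells through a non-stimulated state (NS), stimulation with PMA and ionomycin (ST), stimulus withdrawal (SW) and re-stimulation (RS), after pre-treatment with the vehicle DMSO or with rottlerin, described as a PKC inhibitor. By its labels, the first of the 4 lists came from NS cells with DMSO. The second came from SW cells with DMSO, which were stimulated for 4 h, washed and cultured for 1 day. The study's methods give another stimulation time than the labels used here. The remaining pair came from NS and SW cells pre-treated for 1 h with 15 µM rottlerin. By the same labels, the other 5 of the 9 samples were the ST and RS libraries and the total input. The labels gave none of these a list, and the total input entered only as the background of the peak calls. The assay used 1 cell line and 1 library stood behind each list, so no difference between lists could be set against replicate error and no p-value is given.

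The names of 3 lists were in doubt. The 4 lists merged into 40731 regions, of which 28 lay outside the autosomes, X and Y. The study's text gives that same total for its DMSO libraries of the NS, ST, SW and RS states, whereas the labels give the lists to NS and SW with and without rottlerin. The lists are therefore called the NS list, the list labelled SW, the list labelled NS rottlerin and the list labelled SW rottlerin. No direction is drawn from the last 3 names. The lists held 18977, 20132, 23835 and 30409 peaks in that order and covered 6.69, 7.12, 8.51 and 11.5 Mb, so a longer list had more chances to show a peak anywhere. The median fold enrichment over total input was 4.03 to 4.08 in all 4. Read depth is unknown, because the lists hold no read counts. Of 9 genes of T cell lines, 6 had a peak within 1 kb of their start in at least 1 list, CD3D and CD3E in all 4, while CD2, CD7 and GATA3 had none. None of 5 genes of B cells, monocytes and epithelium had one.

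Tribbles proteins have a kinase fold with little or no catalytic activity and act as scaffolds. Their C-terminal tail binds the ubiquitin ligase COP1, and their pseudokinase domain holds substrates such as the transcription factor C/EBPα, which is then degraded. They also bind MAP kinase kinases and AKT. TRIB1 and TRIB2 are known in blood cells for driving myeloid leukaemia through the loss of C/EBPα. TRIB3 is a target of the stress-induced factors ATF4 and CHOP.

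The sequences under several of the regions are shown before the values, because they hold short motifs that recur in the description. Each is a run of 300 bases centred on a merged region, on the plus strand of GRCh37, printed 5′ to 3′ and credited to that reference assembly. The first comes from a region without an NS peak, at chr2:12842411-12842710. Capitals mark TGACTCA or its reverse complement, the letters bound by AP-1, the dimer of FOS and JUN proteins that PMA and ionomycin induce.
TRIB2 region 1: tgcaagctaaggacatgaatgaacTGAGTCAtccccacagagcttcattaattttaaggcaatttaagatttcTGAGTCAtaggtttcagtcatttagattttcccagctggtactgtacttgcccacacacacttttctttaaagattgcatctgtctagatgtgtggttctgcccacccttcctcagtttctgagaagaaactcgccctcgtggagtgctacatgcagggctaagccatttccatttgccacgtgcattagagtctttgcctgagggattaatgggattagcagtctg

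This window held the letters 2 times, with starts 49 bases apart. The first copy, at chr2:12842435-12842441, ended 7 bases before the called region began, and the second lay inside it. Region 2 of TRIB1 also held 2 copies, both inside the region and 118 bases apart, and region 3 of TRIB3 held 2 inside the region. At least 2 copies were found in 556 of 40703 regions, or 1.37%, and 90.3% of those 556 had no NS peak. The Tribbles genes held 3 such regions, 1 at each gene, all without an NS peak. A match of letters is a description and does not show that a factor was bound.

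The next set comes from TRIB2. It is shown because the region over the gene start and the regions on either side of it differed in the lists that held them and in base composition. The windows lie at chr2:12849315-12849614, chr2:12856560-12856859 and chr2:12868485-12868784. Capitals mark ETS letters (GGAAGT) and FOXO letters (GTAAACA) in region 2, a GC box (GGGCGG) and FOXO letters in region 3, and RUNX letters (TGTGGT) and ETS letters in region 4, on either strand. In region 2, the second ETS match shares 2 bases with the FOXO match, so 1 run of capitals holds both.
TRIB2 region 2: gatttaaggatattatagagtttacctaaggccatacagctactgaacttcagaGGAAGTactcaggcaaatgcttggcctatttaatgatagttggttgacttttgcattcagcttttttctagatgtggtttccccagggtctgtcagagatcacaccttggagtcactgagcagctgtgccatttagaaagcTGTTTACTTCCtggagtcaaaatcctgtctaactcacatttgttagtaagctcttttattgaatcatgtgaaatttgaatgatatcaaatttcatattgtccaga
TRIB2 region 3: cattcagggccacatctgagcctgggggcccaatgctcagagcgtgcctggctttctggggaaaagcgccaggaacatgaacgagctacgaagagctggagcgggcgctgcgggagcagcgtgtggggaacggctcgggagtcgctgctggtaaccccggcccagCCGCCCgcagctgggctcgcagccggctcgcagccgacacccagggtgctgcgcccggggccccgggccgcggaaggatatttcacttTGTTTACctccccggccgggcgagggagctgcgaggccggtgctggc
TRIB2 region 4: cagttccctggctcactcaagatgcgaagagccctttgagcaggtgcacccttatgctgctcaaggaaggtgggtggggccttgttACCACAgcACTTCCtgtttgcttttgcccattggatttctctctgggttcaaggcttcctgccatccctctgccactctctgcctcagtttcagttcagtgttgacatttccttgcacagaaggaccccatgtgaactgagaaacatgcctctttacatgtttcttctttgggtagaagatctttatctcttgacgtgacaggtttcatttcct

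The last set comes from TRIB3, in the gene and beyond its 3′ end. Capitals mark RUNX letters and TGATGNAA, the composite letters bound by ATF4 with a C/EBP partner, on either strand. Region 9 lies upstream of the neighbouring gene RBCK1 and is shown at chr20:382591-382890, where an ATF4-C/EBP match and a RUNX match stand end to end. The 3 short sites lie under region 8 in the untranslated first exon of the canonical TRIB3 transcript (chr20:361404-361813), at chr20:361530-361549, chr20:361563-361582 and chr20:361596-361615, each with 6 bases on either side of the match.
TRIB3 region 9: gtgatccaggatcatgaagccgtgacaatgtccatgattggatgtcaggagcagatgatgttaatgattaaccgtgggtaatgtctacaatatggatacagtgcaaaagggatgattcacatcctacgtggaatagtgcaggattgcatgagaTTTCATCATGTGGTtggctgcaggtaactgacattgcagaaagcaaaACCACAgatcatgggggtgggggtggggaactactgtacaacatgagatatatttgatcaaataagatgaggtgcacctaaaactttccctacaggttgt
TRIB3 TSS site 1: tccggtTTGCATCAcccgga
TRIB3 TSS site 2: tccggtTTGCATCAcccgga
TRIB3 TSS site 3: tccggtTTGCATCAcccgga

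The 3 sites under region 8 of TRIB3 were identical over all 20 printed bases and started 33 bases apart, 132, 165 and 198 bases after the start of the canonical TRIB3 transcript. Counted over whole regions, 3026 of 40703 merged regions (7.43%) held the ATF4-C/EBP letters at least once. Only 12 regions (0.0295%) held them 3 times or more, and region 8 was one of these. Region 8 is 1437 bp wide, which gives more room for a match than the median width of 294 bp over all regions. Identical copies at an equal spacing cannot be taken as independent matches. They were counted in the reference assembly and not in Jurkat DNA.

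Across the 3 genes, 12 of 18 regions (66.7%) had no NS peak, beside 53.5% of all merged regions (95% Wilson interval 53.0 to 54.0, counting error only). TRIB1 and TRIB2 each had 2 of 4 such regions, and TRIB3 had 8 of 10. A peak in all 4 lists was found at 4 of 18 regions, 2 at TRIB1, 1 at TRIB2 and 1 at TRIB3, beside 26.6% of all regions. The NS list had a peak at 6 of the 18 regions and the list labelled SW at 11. The list labelled NS rottlerin had one at 7 and the list labelled SW rottlerin at 13. Over all 40703 merged regions, these lists held 18977, 20132, 23835 and 30409 peaks in the same order. The share of all regions held by each list is not given here, as a region can hold more than 1 peak of a list. The NS list was the shortest: with the same number of highest-scoring peaks taken from each list, 9 of 15 Tribbles regions had no NS peak (1 of 3 at TRIB1, 2 of 4 at TRIB2 and 6 of 8 at TRIB3), beside 41.6% of all regions. In the higher-scoring 50% of each list, 6 of the 18 regions remained. Of the 12 regions without an NS peak, region 1 of TRIB2 alone was among them.

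Of the 7 regions within 1 kb of the start of any coding transcript, 4 had no NS peak, beside 30.6% of all regions at that distance. This distance counts starts other than the annotated gene start, so region 4 of TRIB1 and region 8 of TRIB3 are among the 7. It also counts neighbouring genes: regions 1, 4 and 10 of TRIB3 lie at starts of SOX12, NRSN2 and RBCK1. Of these, regions 4 and 10 are among the 4 without an NS peak. Of the 11 regions farther away, 8 had none, beside 61.2%. With so few regions, these shares are a description of the windows of the 3 genes, neighbouring genes included.

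**Figure D1:**
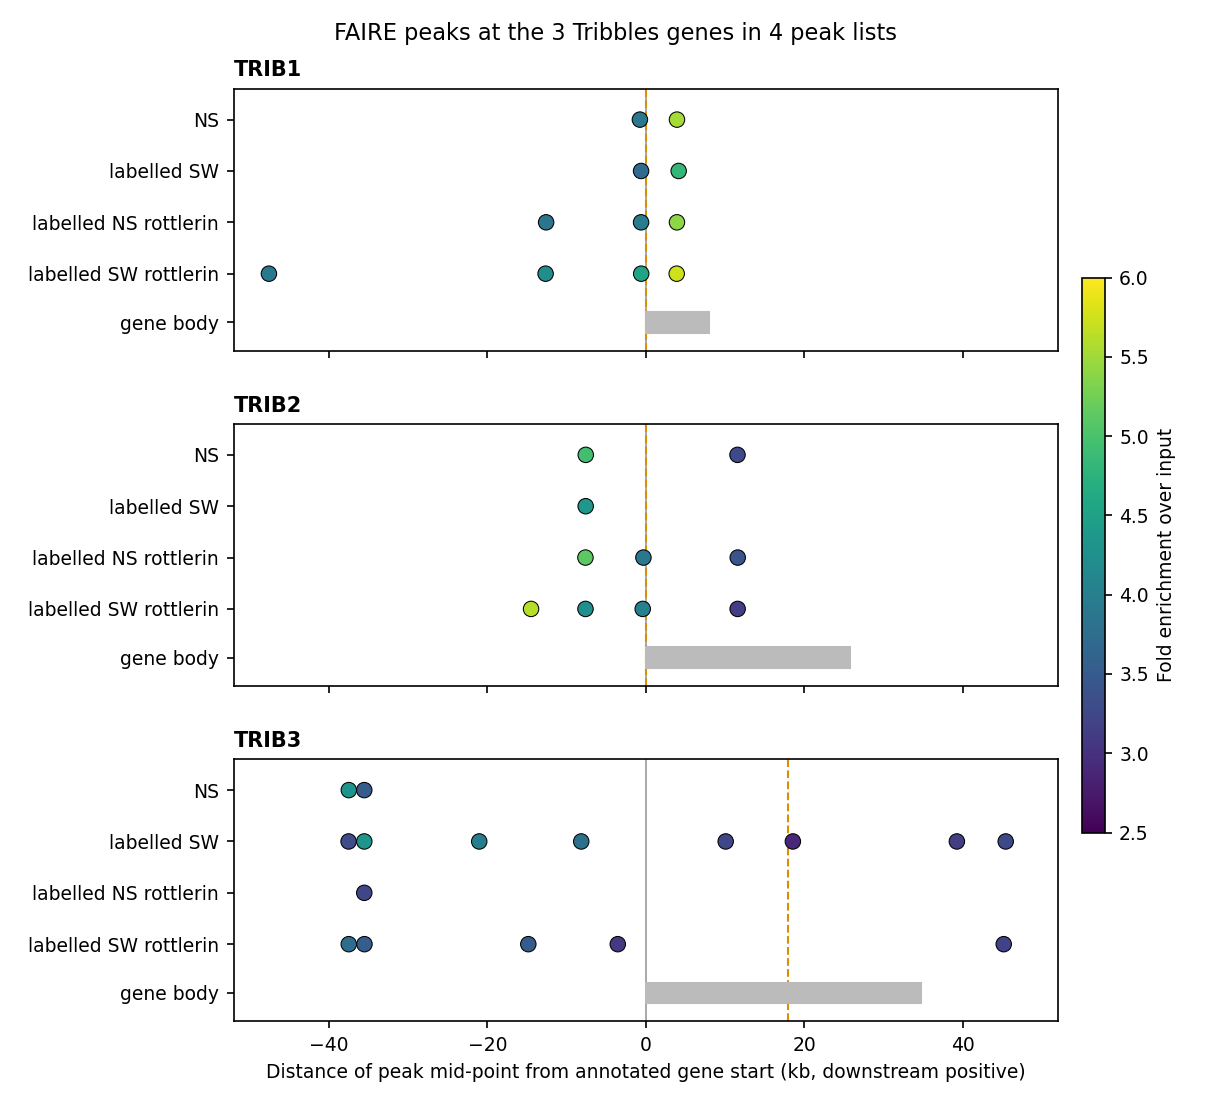
Each point is a peak, placed by the distance of its mid-point from the annotated gene start in kb (x axis) in 1 of 4 lists (y axis), with colour giving fold enrichment over input, a grey bar the gene body, a grey line the gene start and a dashed line the start of the canonical transcript. TRIB1 has peaks of all 4 lists at or near its start, and TRIB2 has peaks over its start in both rottlerin-labelled lists alone. The canonical TRIB3 start has a peak in the list labelled SW alone. The NS peaks in the TRIB3 window lie 35.5 and 37.5 kb upstream of the gene start.

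TRIB1, which feeds C/EBPα and other substrates to COP1, lies at chr8:126442600-126450645. Region 3 (chr8:126441424-126442627), with a mid-point 0.574 kb upstream in the promoter, had a peak in all 4 lists. The peak of the list labelled SW rottlerin reached over the gene start, and those of the NS list, the list labelled SW and the list labelled NS rottlerin ended 345, 61 and 22 bp before it. Fold enrichment there was 3.90 in the NS list, 3.69 in the list labelled SW, 3.95 in the list labelled NS rottlerin and 4.54 in the list labelled SW rottlerin. The 4 values were close, and the other lists stood at 0.95, 1.01 and 1.16 times the NS value. The region was rich in CpG dinucleotides, with 37 of them in its central 300 bases and a GC content of 72.3%. The peak itself was 786 bp wide in the NS list and 1058, 1136 and 1204 bp wide in the other 3.

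Region 4 of TRIB1 (chr8:126446344-126447166), 4.16 kb downstream of the start in an intron, held the highest values of the 18 regions. Its fold enrichment was 5.53 in the NS list, 4.82 in the list labelled SW, 5.41 in the list labelled NS rottlerin and 5.74 in the list labelled SW rottlerin. These values were above 87.9, 76.7, 85.4 and 89.3% of the peaks in their lists. In contrast to the promoter, this region had a GC content of 39.3% and 1 CpG in its central 300 bases. The peak was 282, 319 and 297 bp wide in the NS list and both rottlerin-labelled lists, and 823 bp wide in the list labelled SW.

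Both TRIB1 regions without an NS peak were intergenic and upstream. Region 2 (chr8:126429810-126430138), 12.6 kb upstream, had a peak in both rottlerin-labelled lists alone, with fold enrichments of 3.86 and 4.20. This is the region with 2 copies of the AP-1 letters, and the nearest NS peak was 11.3 kb away. Region 1 (chr8:126394948-126395141), 47.6 kb upstream, had a peak of 3.92 in the list labelled SW rottlerin alone. No other coding gene lay in the TRIB1 window.

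TRIB2, which drives C/EBPα loss in leukaemia and restrains FOXO factors, lies at chr2:12857036-12882860. It had no NS peak within 1 kb of its start. Region 3 (chr2:12856246-12857173), with its mid-point 0.326 kb upstream, had a peak in both rottlerin-labelled lists alone, at 3.90 and 4.01, and both peaks reached over the gene start. These values were above 42.3 and 49.2% of the peaks in their lists, with q-values of 2.59e-05 and 1.35e-05. The nearest NS peak was 6.61 kb away. The window printed for this region had a GC content of 69.7% and 28 CpG dinucleotides, close to those of the TRIB1 promoter, while the lists that held it differed. Over all regions, 8.44% had a peak in both rottlerin-labelled lists alone, and 2 of the 18 regions did.

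Region 2 of TRIB2 (chr2:12849293-12849637), 7.57 kb upstream in an intron of the long non-coding RNA gene ENSG00000286427, was the TRIB2 region with a peak in all 4 lists. Its fold enrichment was 4.94 in the NS list, 4.36 in the list labelled SW, 5.12 in the list labelled NS rottlerin and 4.23 in the list labelled SW rottlerin. The lists thus stood at 0.88, 1.04 and 0.86 times the NS value. This region had no CpG in its central 300 bases and a GC content of 38.0%, and its printed window holds the overlapping FOXO and ETS letters.

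Region 1 of TRIB2 (chr2:12842448-12842674) lay 14.5 kb upstream in an exon of the long non-coding RNA gene MIR3681HG. It had a peak in the list labelled SW rottlerin alone, with a fold enrichment of 5.61, above 87.7% of the peaks in that list. This was the highest value among the 9 regions held by a single list, and the printed window holds 2 copies of the AP-1 letters. Region 4 (chr2:12868463-12868806), 11.6 kb downstream in a TRIB2 intron, was held by 3 lists at low values. It stood at 3.28 in the NS list, 3.41 in the list labelled NS rottlerin and 3.14 in the list labelled SW rottlerin, above 11.7 to 21.3% of the peaks in those lists, and had no peak in the list labelled SW.

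TRIB3, the stress-induced member that binds AKT, lies at chr20:343479-378203. Its annotated start and the start of its canonical transcript, at position 361404, are 17.9 kb apart. No list had a peak within 1 kb of the annotated start. The canonical start was covered by region 8 (chr20:361327-362763), which had a peak in the list labelled SW alone. Its fold enrichment of 2.89 was above 4.1% of the peaks in that list, with a q-value of 0.000226, and the nearest NS peak was 53.2 kb away. The primer pair that the study used to amplify the TRIB3 promoter by FAIRE-qPCR matched the genome once each and gave an 89 bp product, chr20:361376-361464, inside this region. The peak was thus low in its list and wide, and the 3 printed sites lay within it.

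**Figure D2:**
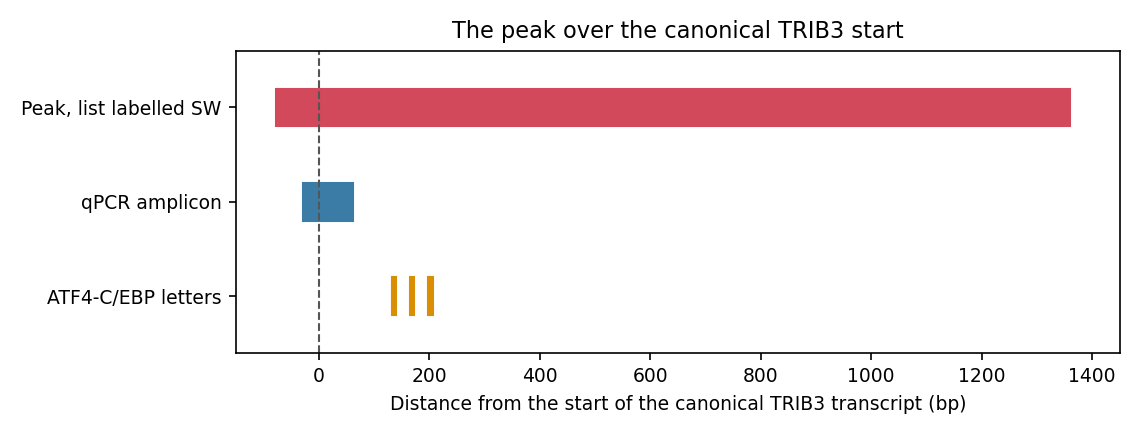
Positions in bp from the start of the canonical TRIB3 transcript (x axis, dashed line at 0) are shown for the peak of region 8 in the list labelled SW, the qPCR amplicon and the 3 matches to the ATF4-C/EBP letters. The 1437 bp peak covers the 89 bp amplicon and the 3 matches, which start 132, 165 and 198 bp after the transcript start.

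Region 7 (chr20:353483-353650), in an intron 10.1 kb downstream of the annotated start and 7.84 kb upstream of the canonical one, also had a peak in the list labelled SW alone, at 3.24. These 2 regions were the only ones inside the TRIB3 gene, and neither had a peak in the NS list or in the rottlerin-labelled lists. Their scores, 10 times the negative log10 of the q-value that the peak caller MACS2 gave, were 36 and 30, below the list's median of 54.

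The other 8 TRIB3 regions lay at or between the neighbouring genes SOX12, NRSN2 and RBCK1, so their assignment to TRIB3 rests on distance. Region 1 (chr20:305881-306113), 0.199 kb from the start of SOX12, a transcription factor gene, stood at 4.31 in the NS list, 3.30 in the list labelled SW and 3.74 in the list labelled SW rottlerin, with no peak in the list labelled NS rottlerin. Region 2 (chr20:307781-308158), in the 3′ untranslated region of SOX12, had a peak in all 4 lists, at 3.50 in the NS list, 4.34 in the list labelled SW, 3.24 in the list labelled NS rottlerin and 3.52 in the list labelled SW rottlerin. These were the only regions of the TRIB3 window with an NS peak, 37.5 and 35.5 kb upstream of the annotated start.

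Between them and TRIB3 lay 4 regions that a single list held. Region 3 (chr20:322374-322553), in an intron of NRSN2-AS1 and with 2 copies of the AP-1 letters, stood at 3.99 in the list labelled SW. Region 4 (chr20:328358-328958), 0.286 kb from a transcript start of NRSN2, stood at 3.51 in the list labelled SW rottlerin. Regions 5 (chr20:335255-335419) and 6 (chr20:339831-340066) lay in the 3′ untranslated region of NRSN2, at 3.78 in the list labelled SW and at 3.09 in the list labelled SW rottlerin. Region 6 had the weakest evidence of the 18, with a q-value of 0.0283.

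Downstream of TRIB3, region 9 (chr20:382554-382928), 39.3 kb from the annotated start, stood at 3.12 in the list labelled SW alone. Region 10 (chr20:388294-389020), 0.065 kb from a transcript start of RBCK1, was held by both SW-labelled lists, at 3.27 and 3.19. RBCK1 encodes a subunit of the linear ubiquitin ligase complex. Region 10 had the highest GC content of the 18 windows, 85.3%. The median GC content was 64.5% over the 10 TRIB3 regions, 46.5% over those of TRIB1, 46.5% over those of TRIB2 and 46.3% over all regions.

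**Figure D3:**
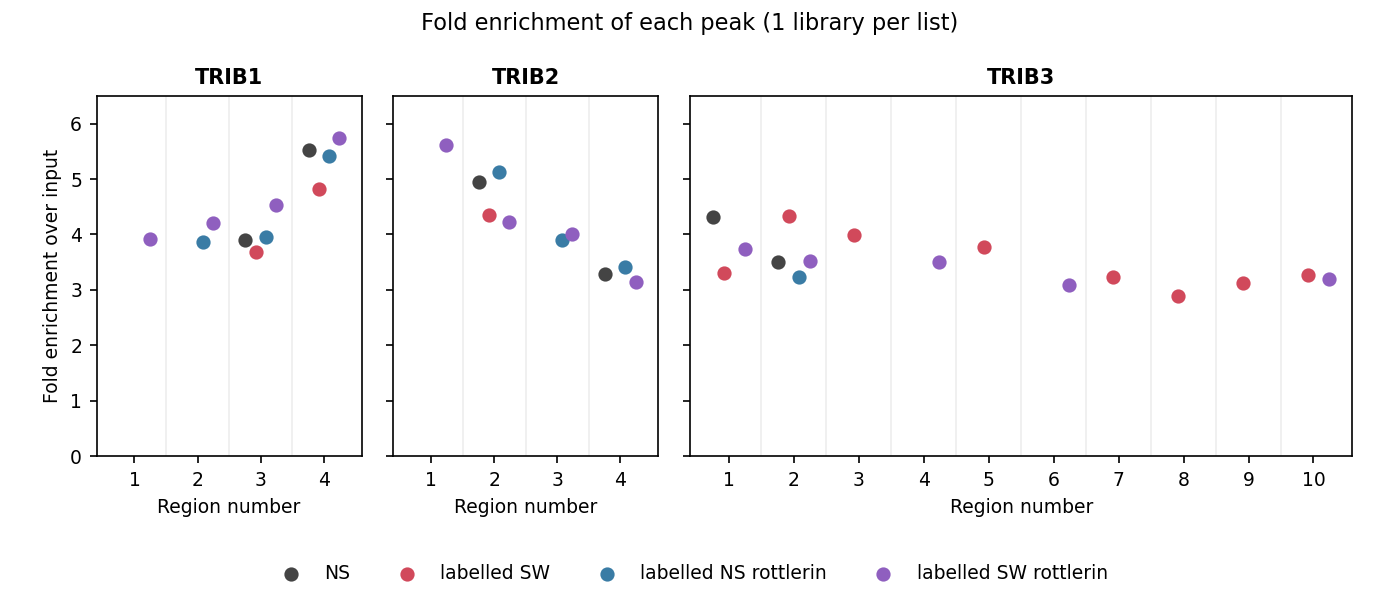
Each point is the fold enrichment over input of 1 peak (y axis) by region number (x axis) for each gene, coloured by list, with 1 library per list and therefore no error bars. TRIB1 region 4 is the highest of the regions with all 4 lists, at 4.82 to 5.74, and the values at TRIB3 lie between 2.89 and 4.34.

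Of the 10 TRIB3 regions, 8 had a peak in the list labelled SW and 5 in the list labelled SW rottlerin. The NS list had a peak at 2 and the list labelled NS rottlerin at 1. Over all merged regions, these lists held 20132, 30409, 18977 and 23835 peaks in that order. A peak in the list labelled SW alone was found at 5 TRIB3 regions (3, 5, 7, 8 and 9) and at none of TRIB1 or TRIB2, beside 4.32% of all regions. A peak in the list labelled SW rottlerin alone was found at 4 of the 18 regions, beside 18.2% of all regions. Among the 20163 coding genes, 2 had at least 5 regions of the list labelled SW alone (0.00992%), TRIB3 and MBNL1, which encodes a splicing factor. This gene was named after its value was seen. The limit of 5 was the count of TRIB3 itself, and genes were not counted in this way for the other lists. That share is therefore a description and not a test. Of the 5 regions counted for TRIB3, only regions 7 and 8 lay inside the gene. Regions 3, 5 and 9 lay in an intron of NRSN2-AS1, in NRSN2 and upstream of RBCK1. The 5 TRIB3 regions were low within their list, above 4.1 to 48.4% of its peaks by fold enrichment, and none remained when each list was reduced to its higher-scoring 50%.

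By the count of regions without an NS peak, TRIB3 with 8 was above 98.6% of coding genes, and 278 genes (1.38%) had at least as many. TRIB1 and TRIB2, with 2 each, were above 59.4%. The median gene had 1 and the 90th percentile was 4. By the count of all regions, TRIB3 with 10 was above 96.5% of genes and the other members with 4 above 59.5%, beside a median of 3. Its window held 3 other coding genes and those of TRIB1 and TRIB2 held 0, and the part of neighbouring genes in these counts was not tested.

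**Figure D4:**
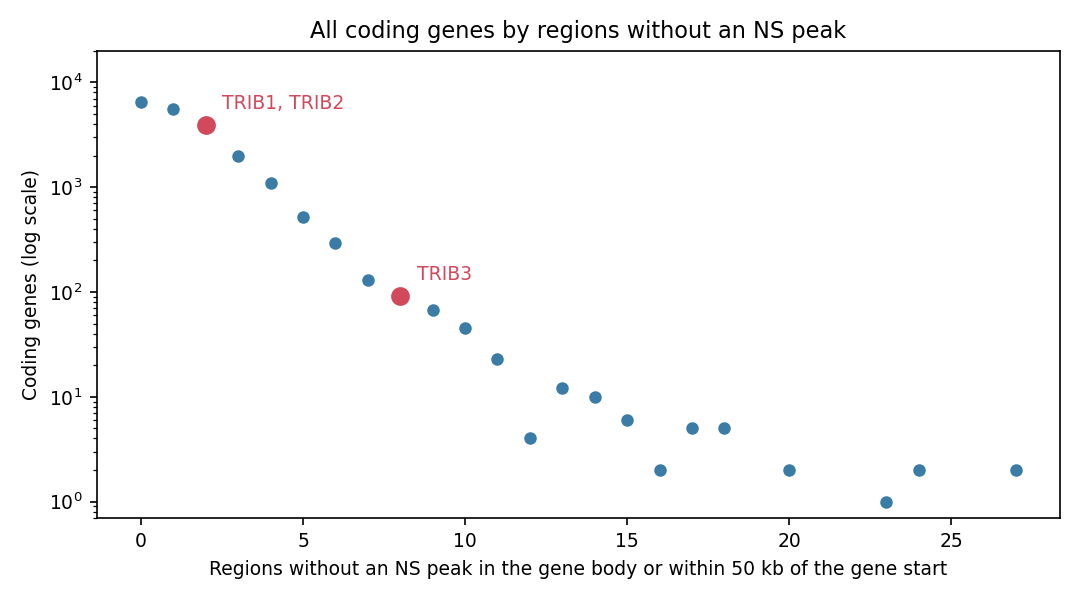
The number of coding genes (y axis, log scale) is plotted against the number of merged regions without an NS peak in the gene body or within 50 kb of the gene start (x axis), with the values that hold the Tribbles genes in red. TRIB1 and TRIB2 share the value 2 with many genes, while TRIB3 stands at 8.

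In the 4 regions with all lists, the fold enrichment of the other lists was 0.857 to 1.24 times that of the NS list, and none of the 12 ratios passed 1.5-fold in either direction. Among all 10841 regions with 4 lists, 10.4% had at least 1 ratio past 1.5-fold. The highest ratio was that of region 2 of TRIB3 in the list labelled SW, 4.34 beside 3.50, and the lowest that of region 2 of TRIB2 in the list labelled SW rottlerin, 4.23 beside 4.94. With the score in place of fold enrichment, 2 of the 12 ratios passed, both at the same pair of regions and lists. Region 1 of TRIB3, held by 3 lists and so not among these, had a lower ratio, 0.76 in the list labelled SW (3.30 beside 4.31). A region without a called peak can still hold signal below the caller's threshold, which the lists do not show.

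Of 15 motif families searched on both strands in the central 300 bases, the AP-1 letters were found in 3 of 18 regions, beside 13.2% of all regions. Over all regions the share was 19.8% without an NS peak and 5.55% with one. RUNX letters were found in 9 of 18 (32.8% of all regions), the bHLH letters CAGCTG in 6 (17.1%) and CACCTG in 4 (21.4%), GC boxes in 6 (22.6%) and ETS letters in 5 (27.6%). NFAT letters (TGGAAA) were found in 3 (27.9%), GATA letters (AGATAA) in 3 (21.0%), FOXO letters in 3 (3.87%) and TCF letters (CTTTGAT) in 2 (6.61%). The ATF4-C/EBP letters and the C/EBP letters TTGCNNAA were found in 1 region, region 9 of TRIB3 (5.78% and 13.9%). The CRE (TGACGTCA), NFκB (GGNNTTTCC) and EGR (GCGNGGGCG) letters were found in none (0.985%, 6.6% and 3.89% of all regions). The 3 ATF4-C/EBP sites at the canonical TRIB3 start lay outside the central window of their wide region.

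Genes of the same pathways were described from a list of 29 genes, all found in the annotation. Together they held 136 regions, 56 of them (41.2%) lacking an NS peak, beside 53.5% of all merged regions. Peaks of all 4 lists lay within 1 kb of the start at 18 of the 29 genes. By the likeness rule below, which takes the highest-scoring region within 1 kb, 6118 of the 20163 coding genes had all 4 lists. The 18 genes were counted by the region with the most lists, so these counts are not measured alike. Among those with many regions lacking an NS peak, EIF2AK3 (PERK, a stress kinase), FOXO1 and FOXO3 had 4 each, of 7, 4 and 11. None of the 29 genes had more than 1 region of the list labelled SW alone, and every one had at least 1 region.

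COP1, the ligase that Tribbles proteins recruit, and its partner DET1 had a single region each, within 1 kb of the start, in all 4 lists. The 7 genes of the COP1 ligase and its C/EBP substrates had 7 of 16 regions without an NS peak (43.8%). CEBPA, the substrate gene, had 1 region, within 1 kb of its start, in the list labelled SW rottlerin alone. The MAP kinase genes had 14 of 35 (40.0%) and the AKT and FOXO genes 15 of 28 (53.6%). Over all merged regions, 53.5% had no NS peak. The related pseudokinase gene STK40 had 2 of 6.

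The 10 stress response genes encode kinases, factors and targets of the ATF4 pathway. They had 18 of 51 regions without an NS peak (35.3%), beside 53.5% of all regions. Of the 10 genes, 9 had peaks of all 4 lists within 1 kb of their start, ATF4, DDIT3 (CHOP) and CHAC1 among them. The exception was ASNS, the asparagine synthetase gene, whose single region was held by both SW-labelled lists. TRIB3 had no NS peak within 1 kb of its annotated or canonical start, whereas 9 of these 10 genes had one. TRIB2 also had none at its start, and neither did 10 of the 29 related genes. The share of all coding genes with an NS peak at the start is not given here. These counts compare presence in lists of 1 library each, and no difference was tested.

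Within 1 kb of the start of TRIB1, the coding genes with the most similar fold enrichments in the 4 lists were CCAR2, MAN2C1 and PCNX4, at Euclidean distances of 0.0538, 0.0611 and 0.0646 in log2 fold enrichment among 6118 genes with all 4 lists. Within 1 kb of the start of TRIB2 they were SERINC4, PLSCR1 and MELK, at 0.00899, 0.0203 and 0.023 over 2 lists among 543 genes. TRIB3 had no region at its annotated start and was given no such neighbours. Likeness over 2 to 4 values of single libraries says nothing of shared function.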

How the data were processed

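FAIRE DNA from Jurkat cells had been sequenced, and per the methods and the submitters' processing notes the reads were trimmed with cutadapt, aligned to hg19 with Bowtie2, cleared of duplicates with Picard and called as broad peaks with MACS2 against a total input library, an equal mix of input from unstimulated and stimulated cells. Tool versions are not given in the sources used here. The study's methods name a q-value of 0.05, while the weakest peaks in the deposited lists had q-values of 0.0946 to 0.0983. The deposited values used were the fold enrichment over input (a linear ratio), the score (10 times −log10 q) and the −log10 p and −log10 q of each peak, all computed by the authors for each list from 1 library.

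Overlapping or touching peaks were merged with Python 3.11.15, pandas 2.3.3 and numpy 2.4.6, a list held a region when its peak overlapped it by at least 1 bp, and a region took the highest fold enrichment in each list. The mid-point of a region gave its place, untranslated regions taking precedence over exons, exons over introns, and introns over promoters (within 1 kb) and upstream sequence (within 10 kb). Sequence was read with pysam 0.24.0. The ratio that counted as a change was 1.5-fold. The merging of peaks, the lists and fold enrichments given to each region, and the motif search were tested on simulated data. The assignment of regions to genes was not tested in this way. All 18 regions are named; of the related genes, the 5 with most regions without an NS peak, ties by alphabet (some items that these rules name are not reported here), and any gene without a region; for likeness, the 3 coding genes with the same lists at the start and the smallest distance. COP1, DET1, CEBPA, STK40, ATF4, DDIT3, CHAC1, ASNS and MBNL1 were named after their values were seen. The genes, gene lists and rules were chosen with earlier results of these data known.

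Samples were grouped by their labels. The ratios and shares compare single libraries, and no test was made. Intervals cover counting error only. Alternatives were other merging distances, q-values, scores, list lengths, windows, gene starts, coverage rules and motif windows, and leaving out each list.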

Additional observations from a re-analysis of the deposited data

How the results depend on the processing

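Of 62 alternative values, 48 stayed within 1.5 times the reported count or, for the share of all regions, within its interval, and 14 did not. Reducing each list to its higher-scoring 50% left 6 of 18 Tribbles regions, 2 of them counted as without an NS peak and 2 in all 4 lists, 27 related-gene regions without an NS peak, and 52.4% of all regions without one. Of those 2, region 1 of TRIB2 has no NS peak in the full lists, while the NS peak of region 2 of TRIB2 (score 54) was removed by the limit of 57. Taking the same number of peaks from each list gave 41.6% and 33 related-gene regions. A q-value of 0.01 gave 52.9%, and counting a list only where its peaks covered 50% of the region gave 60.2%. A window of 100 kb gave 28 Tribbles regions, 9 in all 4 lists, and 86 related-gene regions without an NS peak, with TRIB3 at 9 of 16 without one. With the score in place of fold enrichment, 2 of 12 ratios to the NS list passed 1.5-fold: region 2 of TRIB3 in the list labelled SW (score 106 beside 60) and region 2 of TRIB2 in the list labelled SW rottlerin (35 beside 54). The AP-1 letters were in 5 of 18 whole regions. Leaving out 1 list at a time left 13 to 18 regions, 13 without the list labelled SW.

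An alternative chosen after seeing the data, the canonical transcript start, gave TRIB3 8 regions, all 8 without an NS peak. No paired analysis was possible because no group has more than 1 library. Without replicates, a peak in 1 list and not in another could not be set against library-to-library variation, and the lists do not give the read depth behind each call.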
